A study of Rattus norvegicus with 24 samples.

Results

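Rat hepatocytes that had spent their first day under an overlaid collagen gel were compared with hepatocytes left on the bottom gel alone. The comparison used 3 arrays of sandwich cultures and 3 arrays of monolayer cultures, all collected at day 1, which is 6 of the 24 arrays of the study. All arrays were chosen by their culture type and day in the labels, with no use of measured values. Both groups were primary hepatocytes of Rattus norvegicus on collagen-coated plates, in DMEM with fetal bovine serum, penicillin, streptomycin, epidermal growth factor, insulin, glucagon and hydrocortisone. In the sandwich cultures the second collagen layer was laid on the day after seeding, and day 1 counts from that deposition in both groups. The labels class the sandwich as the stable and the confluent monolayer as the unstable control culture, and give no strain, sex or age. Other days (2, 3 and 8, again 3 arrays of each culture) were used for the estimate of spread and to follow the day 1 genes. Nothing in the labels says that replicates came from separate animals or separate wells, so p-values measure the spread between these samples, which may be technical.

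Hepatocytes lose much of their liver character after isolation. On a stiff or single surface they spread, assemble actin stress fibres and turn on genes of injury and wound repair, whereas a gel on both faces keeps them polygonal and helps them to retain bile canaliculi and secretion. Several well-known stress programmes can be read from transcripts: heat shock factor 1 drives cytosolic chaperones, the unfolded protein response drives chaperones of the endoplasmic reticulum, serum response factor and YAP read the state of the actin cytoskeleton, and NF-kappaB and interferon-regulated factors drive inflammatory and antiviral genes.

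At day 1 the 2 cultures differed in a small set of genes. Sandwich cells had more RNA of the inducible Hsp70 gene, of some chaperones of the endoplasmic reticulum, of some immediate early genes and of some fat oxidation genes. They had less RNA of some actin cytoskeleton genes, some annexins and S100 proteins, and some chemokines. Among interferon-induced genes Rsad2, Ifit3, Isg15 and Usp18 were higher, and Irf1, Gbp2, Psmb9 and Parp14 lower. Values are log2 probe set levels, tested with limma over 31042 probe sets at an adjusted p under 0.05, with 1 probe set for each of 14217 genes. Of these genes, 117 were called higher in sandwich (0.823%) and 249 lower (1.75%), 2.57% in all. The 3 arrays of a culture lay wholly to one side of the other culture's in 365 of the 366 called genes, against 21.1% of all genes. A call rests on the difference between these same arrays, so lack of overlap in called genes adds no support of its own. Most differences were small: the median size over called genes was 0.54 on the log2 scale, 7 called genes were at least 2-fold higher and 27 at least 2-fold lower. Of all probe sets 552 were called (1.78%), 178 higher (0.573%) and 374 lower (1.2%). That split depended on scaling, with 257 higher and 335 lower after quantile normalization and 351 higher and 348 lower with the interquartile range of each array as a covariate.

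The arrays of the cultures were close to each other. Correlations across probe sets were 0.994 to 0.995 within sandwich, 0.994 to 0.996 within monolayer and 0.991 to 0.995 between the cultures. RNA integrity was read as the log2 excess of 3′ over 5′ control probe sets. For beta-actin it was 1.09, 0.81 and 0.96 in sandwich and 0.89, 0.89 and 0.80 in monolayer (difference 0.0963, exact permutation p = 0.4, two-sided; 3 against 3 arrays cannot go below 0.1). For GAPDH it was 0.288 ± 0.134 in sandwich and 0.231 ± 0.054 in monolayer (SD, n = 3 each; exact permutation p = 0.7). The part of RNA integrity in the results was not tested. Hepatocyte markers were abundant in both cultures: albumin (Alb) averaged 15.02 in sandwich, a difference of 0.01 from monolayer (adjusted p = 0.969), and the lowest of the 14 marker means, for the asialoglycoprotein receptor subunit Asgr2, was 8.70 in sandwich and 8.44 in monolayer.

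The largest rise was in Hspa1a, which encodes the stress-inducible cytosolic chaperone Hsp70. Its level was 11.80, 11.58 and 11.78 in sandwich, against 8.27, 8.24 and 8.04 in monolayer. The lowest sandwich array lay far above the highest monolayer array. The difference was 3.54 (SE 0.13), or 11.6-fold, with an adjusted p of 4.99e-15. Hspa1a has a near-identical copy, Hspa1b, and the array may not tell the transcripts apart. Hspb1, a small heat shock protein, read 10.06, 9.59 and 9.95 in sandwich and 8.58, 8.48 and 8.28 in monolayer, 2.68-fold higher (adjusted p = 5.45e-08). Zfand2a, an arsenite-inducible protein that associates with the proteasome, read 10.22, 9.87 and 10.01 in sandwich and 9.07, 8.93 and 8.80 in monolayer, 2.14-fold higher (adjusted p = 1.09e-05). No array of the 2 cultures overlapped for either gene.

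Few other members of the cytosolic heat shock list passed the test. Of 28 measured members 4 were called higher and 1 lower, with a median difference of 0.07 against -0.0099 over all genes. The fourth was Hsph1, a nucleotide exchange factor for Hsp70, at 10.03, 10.10 and 10.02 in sandwich and 9.54, 9.56 and 9.57 in monolayer (difference 0.49, adjusted p = 0.00103). The member called lower was Dnajb4, a co-chaperone of the DnaJ family (difference -0.45, adjusted p = 0.00335). Hsp90ab1, the constitutive cytosolic Hsp90, averaged 13.06 in sandwich and 13.20 in monolayer (adjusted p = 0.723). The mitochondrial chaperonin Hspd1 averaged 12.64 in sandwich and 12.74 in monolayer (adjusted p = 0.714). The co-chaperones Bag3 and Dnajb1 differed by 0.39 (adjusted p = 0.0644) and 0.19 (adjusted p = 0.336), and Hsf1, the gene of heat shock factor 1 itself, by 0.06 (adjusted p = 0.958). Hspa8 and Hsp90aa1 were not analysed here.

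**Figure D1:**
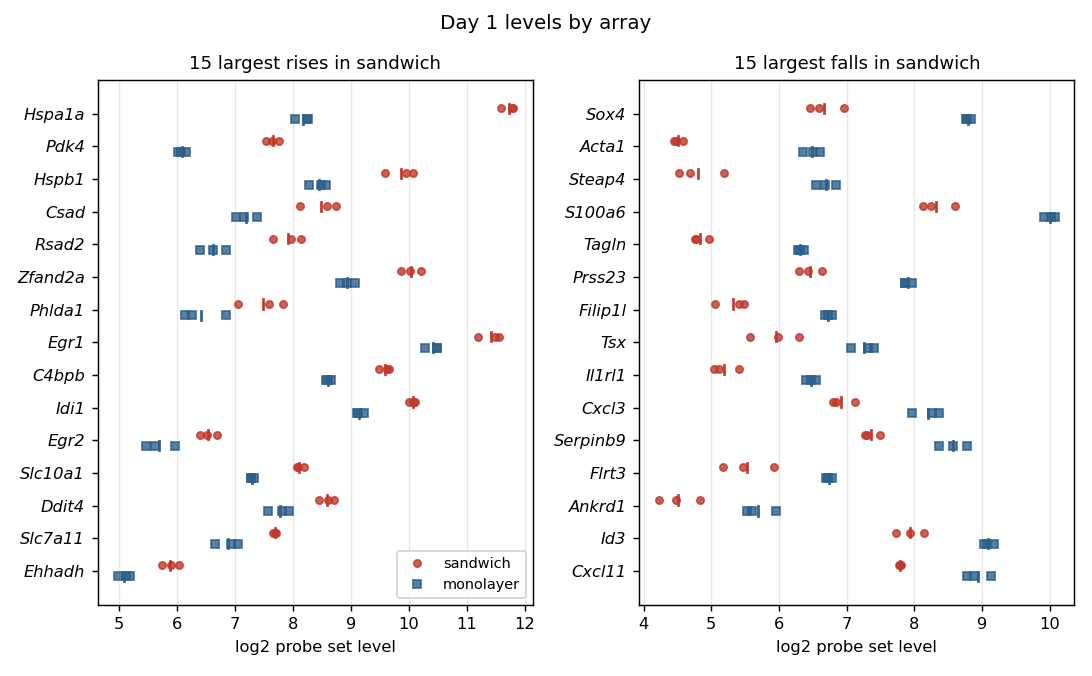
Log2 probe set level (x axis) of the 15 genes with the largest rises (left panel) and the 15 with the largest falls (right panel) in sandwich at day 1, with 1 point per array (sandwich circles above, monolayer squares below) and a bar at each mean. The 3 sandwich arrays of Hspa1a sit between 11.58 and 11.80, against 8.04 to 8.27 in monolayer, while the sandwich arrays of Sox4 sit between 6.46 and 6.96, against 8.77 to 8.84.

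Heat shock factors bind alternating GAA and TTC units. Elements of 3 units spaced by 2 bases of any kind (TTC, GAA, TTC, or GAA, TTC, GAA) were searched on both strands of RefSeq promoters on build GRCr8, from 250 bases before to 50 after each gene's start, and 0.736% of 27457 promoters held a match. Over all called genes with a promoter a match was in 1 of 104 higher in sandwich (0.96%) and in 2 of 205 lower (0.98%). Of the 4 called list members with a promoter sequence only Hsph1 had a match. No match was recorded for Hspa1a, and the results do not show whether its promoter was among those 4. Elements with mismatches or outside the searched bases were not looked for. The share over all promoters, for this and each later motif, includes genes not read on the array, unlike the shares of called genes. The Hsph1 window is shown because it is the sole match among the called members. It lies at chr12:10427312-10427364 on the plus strand, bases -56 to -4 from the start, with the element in capitals.
Hsph1: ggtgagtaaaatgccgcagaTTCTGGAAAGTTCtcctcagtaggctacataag

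Some chaperones of the endoplasmic reticulum were higher in sandwich. Of 22 measured members 7 were called higher and none lower, and the median difference was 0.21. Those 7 were Sdf2l1, Pdia4, Hsp90b1, Manf, Dnajb9, Hspa5 and Creld2, the count stayed at 7 when any of the 6 day 1 arrays was left out, and their differences ran from 0.53 to 0.76. Of all 22 differences 19 were above 0. Hspa5 encodes BiP, the master chaperone of that compartment. It read 13.23, 13.15 and 13.10 in sandwich and 12.59, 12.59 and 12.62 in monolayer (difference 0.56, SE 0.10, adjusted p = 0.00137). Hsp90b1, the Hsp90 paralog of the same compartment, read 12.66, 12.71 and 12.73 in sandwich and 12.16, 12.23 and 12.06 in monolayer (difference 0.55, adjusted p = 0.000283). Sdf2l1, a partner of the BiP chaperone cycle, read 9.49, 9.28 and 9.44 in sandwich and 8.67, 8.84 and 8.63 in monolayer (difference 0.69, adjusted p = 2.09e-05). For these members every sandwich array lay above every monolayer array. Dnajb9, a BiP co-chaperone, differed by 0.76, the disulfide isomerase Pdia4 by 0.70 and the secreted factor Manf by 0.53. Calr and Hyou1, also chaperones of this compartment, differed by 0.56 (adjusted p = 0.19) and 0.75 (adjusted p = 0.286) and were not called. The collagen chaperone Serpinh1 averaged 5.89 in sandwich and 6.54 in monolayer and was not called either (adjusted p = 0.158).

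The sensors and disposal genes of the unfolded protein response gave 3 calls among 21 members, all higher, with a median of 0.15. Herpud1, part of the degradation machinery, read 10.41, 10.30 and 10.36 in sandwich and 9.55, 9.67 and 9.59 in monolayer (difference 0.76, adjusted p = 1.29e-05). Xbp1, a transcription factor of the response, differed by 0.37 (adjusted p = 0.0112), and Edem1, a lectin of degradation, by 0.75 (adjusted p = 0.0155). Without monolayer replicate 3 only 1 call of this list was left. The call of Xbp1 was lost without 2 of the 6 arrays (adjusted p up to 0.0689, without sandwich replicate 1) and that of Edem1 without 3 (up to 0.096, without monolayer replicate 3). The sensor kinase gene Eif2ak3 differed by -0.19 (adjusted p = 0.57).

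The endoplasmic reticulum stress element, CCAAT and CCACG separated by 9 bases of any kind, is bound by ATF6 together with NF-Y. On both strands it was found in 21 of 27457 promoters (0.0765%). It was in 7 of the 18 chaperone genes with a promoter sequence, and in 3 of the 6 called ones. Over all called genes with a promoter it was in 5 of 104 higher in sandwich (4.81%), namely Hspa5, Xbp1, Zfand2a, Creld2 and Hsp90b1, and in 0 of 205 lower. The windows of the 3 called chaperones with the element are shown because few promoters hold it, and 4 further chaperone genes that hold it were not called. They lie at chr7:23012327-23012489 on the minus strand for Hsp90b1 (bases -196 to -34), chr3:38452953-38453011 on the plus strand for Hspa5 (bases -63 to -5) and chr7:121789219-121789277 on the plus strand for Creld2 (bases -165 to -107). Capitals mark the element, read on either strand.
Hsp90b1: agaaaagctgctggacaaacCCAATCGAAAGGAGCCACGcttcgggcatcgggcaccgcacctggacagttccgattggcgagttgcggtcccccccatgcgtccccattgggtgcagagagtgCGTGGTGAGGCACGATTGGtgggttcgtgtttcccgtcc
Hspa5: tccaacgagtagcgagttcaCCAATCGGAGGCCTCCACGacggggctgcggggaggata
Creld2: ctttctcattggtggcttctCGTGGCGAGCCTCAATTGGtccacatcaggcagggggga

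Genes of the amino acid response, which follows the translation factor eIF2 and the transcription factor ATF4, gave 5 calls among 32 members, all higher, with a median of 0.03. Fgf21, a secreted metabolic hormone, read 8.54, 8.62 and 8.68 in sandwich and 7.89, 7.88 and 7.99 in monolayer, 1.62-fold higher (adjusted p = 0.000297). Ddit4, an inhibitor of mTOR signalling, was 1.75-fold higher and Slc7a11, the cystine and glutamate exchanger, 1.75-fold higher (adjusted p = 0.000711 and 0.00379). The cultures did not overlap for any of these genes. Ddit3 (CHOP) and Nupr1 differed by 0.48 and 0.35, and both calls were lost when any of the 6 arrays was left out, with adjusted p up to 0.092 without sandwich replicate 3 and up to 0.271 without sandwich replicate 2. The best-known members were not called: Atf4 itself differed by 0.17 (adjusted p = 0.386), and its targets Trib3 and Asns, asparagine synthetase, by 0.22 (adjusted p = 0.527) and -0.15 (adjusted p = 0.566). Without monolayer replicate 1 there were 3 calls. The C/EBP-ATF response element, TGATGNAAN on both strands, was in 3.80% of all promoters. Over all called genes with a promoter it was in 5 of 104 higher in sandwich (4.81%) and in 7 of 205 lower (3.4%). It was in 8 of the 31 list members with a promoter, among them the called genes Fgf21 and Nupr1. Their windows lie at chr1:105221492-105221540 (bases -164 to -116) and chr1:190645929-190645977 (bases -76 to -28), both on the minus strand, and are shown to give the matched letters, in capitals, which read as the reverse complement in both.
Fgf21: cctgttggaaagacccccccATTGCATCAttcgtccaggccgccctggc
Nupr1: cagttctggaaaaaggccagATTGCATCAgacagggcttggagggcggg

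Immediate early genes, which respond to growth factors and stress within minutes, gave 6 calls among 35 members, all higher, with a median of 0.22. Egr1, a zinc finger transcription factor, read 11.48, 11.19 and 11.56 in sandwich and 10.48, 10.48 and 10.28 in monolayer, 2.00-fold higher (adjusted p = 1.4e-05). Its relative Egr2 read 6.39, 6.70 and 6.52 in sandwich and 5.47, 5.97 and 5.62 in monolayer (difference 0.85, adjusted p = 0.00222), with another probe set at 0.32 (adjusted p = 0.234). Phlda1, a pleckstrin-related regulator of survival, showed the widest spread, at 7.83, 7.05 and 7.59 in sandwich and 6.85, 6.14 and 6.25 in monolayer (difference 1.07, adjusted p = 0.0473). Only the Egr1 and Egr2 calls were kept under every single left-out array. The other calls were Maff, Dusp5 and Gadd45a, with differences of 0.60, 0.54 and 0.30. Their adjusted p went up to 0.0752, 0.0992 and 0.203, that of Phlda1 to 0.239 without monolayer replicate 2, and without sandwich replicate 1 the list gave 2 calls. Fos and Jun, the classic members of this class, averaged 6.85 and 10.75 in sandwich and 6.64 and 10.68 in monolayer (adjusted p = 0.69 and 0.936).

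The actin cytoskeleton was the function with the most falls. Of 42 measured members 13 were called lower and none higher, the median difference was -0.20, and 2 of the 42 had a difference above 0. The skeletal alpha actin Acta1 read 4.57, 4.47 and 4.45 in sandwich and 6.50, 6.35 and 6.60 in monolayer (difference -1.99, SE 0.30, adjusted p = 0.000234). Tagln, or SM22, an actin-binding protein of contractile cells, read 4.77, 4.76 and 4.96 in sandwich and 6.30, 6.28 and 6.37 in monolayer (difference -1.48, adjusted p = 0.000987). Both sandwich means lay below 5.62, the median of all probe sets, where background is unknown, so no fold is given. Among brighter members, the filament crosslinker Actn1 read 8.91, 8.86 and 9.02 in sandwich and 9.79, 10.00 and 10.11 in monolayer, 2.05-fold lower (adjusted p = 0.00012). Flna, which also crosslinks filaments, was 1.82-fold lower and the calponin Cnn2 1.82-fold lower (adjusted p = 9.67e-05 and 5.23e-05). Filip1l, a filamin-interacting protein, fell by 1.42. Tpm4, Tagln2, Vcl (vinculin), Msn (moesin), Ezr (ezrin), Myh10 and Vasp fell by 0.42 to 0.56, and the calls of Ezr, Myh10 and Vasp were lost without some single arrays (adjusted p up to 0.102, 0.161 and 0.3). The 2 other probe sets of Vcl were not called (-0.69 and -0.28). Without sandwich replicate 2 the list gave 10 calls. The smooth muscle actin Acta2 was not called, and read 7.79, 7.48 and 7.13 in sandwich and 7.41, 7.57 and 7.54 in monolayer (adjusted p = 0.975). The cytoplasmic beta-actin gene was not analysed here.

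Serum response factor binds the CArG box, found here in 1.64% of promoters. It was in 4 of the 37 actin list members with a promoter, and in 2 of the 12 called ones, Cnn2 and Acta1. Over all called genes it was in 5 of 205 lower in sandwich (Acta1, Cnn2, Fhl2, Sema3c and Abcc2) and in 4 of 104 higher (Egr1, Egr2, Dusp5 and Herpud1), so called genes with the box moved both ways. Srf itself averaged 8.22 in sandwich and 8.40 in monolayer (adjusted p = 0.579). The Cnn2 and Acta1 windows are shown because they carry the box among the called actin genes, at chr7:10370354-10370403 (bases -91 to -42) and chr19:68784259-68784308 (bases -114 to -65), both on the minus strand, with the box in capitals.
Cnn2: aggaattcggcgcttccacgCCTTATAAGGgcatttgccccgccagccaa
Acta1: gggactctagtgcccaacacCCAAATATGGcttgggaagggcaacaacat

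Genes of the YAP pathway gave 5 calls among 25 members, all lower, with a median of -0.11. Ccn2, the connective tissue growth factor, read 9.38, 8.96 and 9.32 in sandwich and 10.46, 10.32 and 9.95 in monolayer, 2.03-fold lower (adjusted p = 0.000151). Ankrd1, an ankyrin repeat protein and textbook YAP target, read 4.22, 4.84 and 4.48 in sandwich and 5.95, 5.52 and 5.60 in monolayer (difference -1.18, adjusted p = 0.00195). The cultures did not overlap for either gene. Ajuba, whose other probe set was not called, F3 (tissue factor) and Amotl2 fell by 0.40, 0.62 and 0.42, but these calls were lost without 2, 4 and 6 of the 6 arrays (adjusted p up to 0.0695, 0.217 and 0.141), and without sandwich replicate 2 the list gave 2 calls.

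Annexins and S100 proteins, calcium-binding proteins that sit at membranes and the cortex, gave 6 calls lower and 1 higher among 22 members, with a median of -0.18. S100a6 read 8.24, 8.13 and 8.59 in sandwich and 10.02, 9.91 and 10.07 in monolayer, 3.20-fold lower (adjusted p = 8.51e-11). S100a11 read 11.29, 11.34 and 11.41 in sandwich and 12.11, 12.14 and 12.03 in monolayer, 1.68-fold lower (adjusted p = 9.82e-07). S100a4 was 1.91-fold lower and Anxa5 1.40-fold lower, and S100a10 fell by 0.32, a call lost without 3 of the arrays (adjusted p up to 0.0732). Anxa3 fell by 0.92 (adjusted p = 1.32e-06), while 1 of its 3 other probe sets read -0.07 (adjusted p = 0.892). Anxa8 was the member called higher, at 6.78, 6.62 and 7.07 in sandwich and 6.13, 6.22 and 6.12 in monolayer (difference 0.66, adjusted p = 0.0222), a call lost without 5 of the 6 arrays (adjusted p up to 0.129, without sandwich replicate 3).

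Other genes of spreading and adhesion changed in smaller numbers. Sox4, a transcription factor of progenitor and epithelial plasticity, had the largest fall of all genes, at 6.96, 6.46 and 6.59 in sandwich and 8.78, 8.77 and 8.84 in monolayer, 4.36-fold lower (adjusted p = 5.72e-08). Of its 6 other probe sets 2 were also called lower (-1.32 and -1.18) and 4 were not called (-0.04 to -0.84). Ccnd1, cyclin D1, read 8.43, 8.42 and 8.38 in sandwich and 9.55, 9.37 and 9.47 in monolayer, 2.08-fold lower (adjusted p = 0.000369), and was the sole call among 42 cell cycle members. Of these 42 differences 7 were above 0, and by limma at an unadjusted p under 0.05 the list had 10 members lower and 1 higher. Mki67, a mark of cycling cells, read 3.61, 3.62 and 3.52 in sandwich and 3.54, 3.63 and 3.62 in monolayer, all below 5.62, the median of all probe sets. Of 36 integrin and matrix adhesion genes 3 were called, all lower: Cd44, the hyaluronan receptor (-0.56, adjusted p = 0.00357), the caveolin Cav1 (-1.08, adjusted p = 0.00491) and the adaptor Bcar1 (-0.42, adjusted p = 0.0294). The Bcar1 call was lost without 4 of the 6 arrays (adjusted p up to 0.241, without sandwich replicate 2), and 2 other probe sets of Cav1 were not called. Of 27 matrix protease genes 2 were called, both lower, the serine protease Prss23 (2.72-fold) and the plasminogen activator Plat (1.69-fold). Tm4sf4, a tetraspanin-like protein of the progenitor and duct list, was 1.85-fold lower (adjusted p = 5.64e-06). The intermediate filament list gave no call by limma among 13 members, with 3 lower at an unadjusted p under 0.05. Its most abundant members Krt8 and Krt18, the hepatocyte keratins, averaged 13.29 and 13.53 in sandwich and 13.62 and 13.75 in monolayer (adjusted p = 0.0783 and 0.182), and vimentin (Vim) 5.94 in sandwich and 6.12 in monolayer (adjusted p = 0.721).

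**Figure D2:**
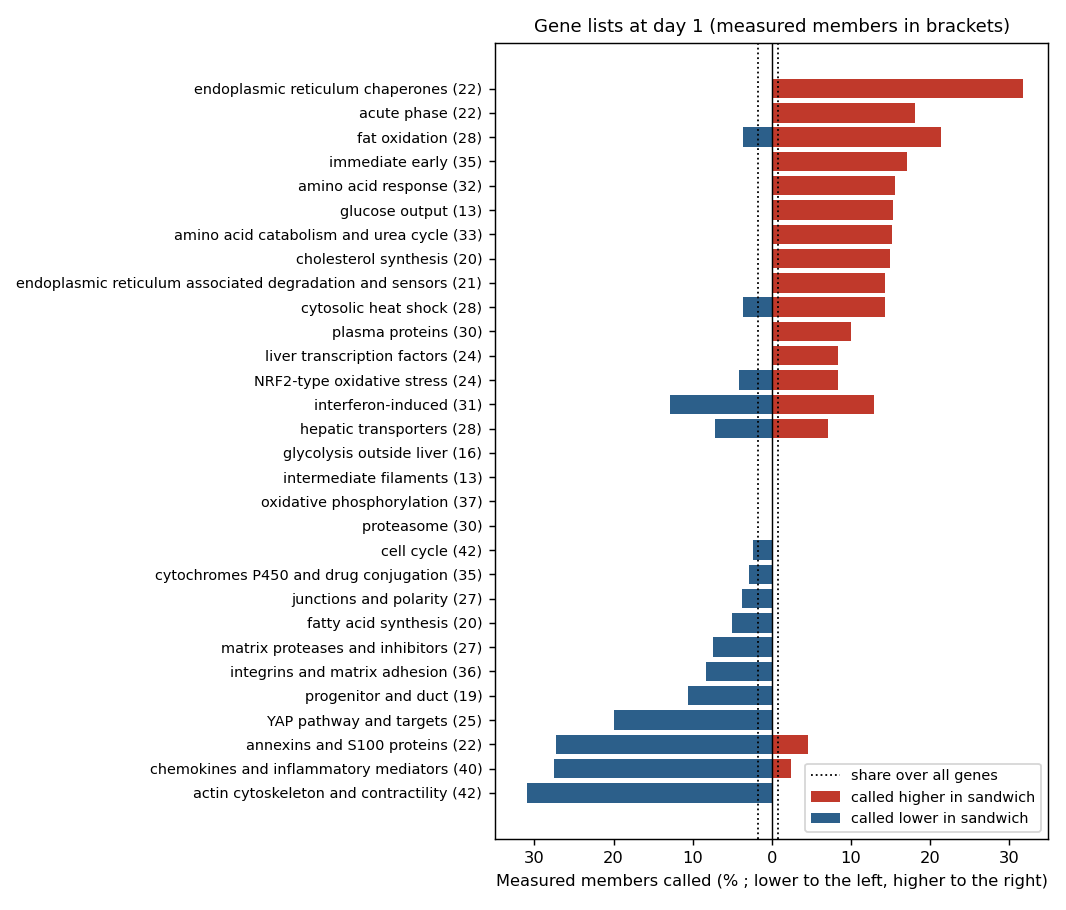
Share of the measured members of each gene list (percent, x axis) called higher in sandwich (red, to the right) or lower (blue, to the left) at day 1, with the number of measured members in brackets and dotted lines at the share over all genes, 0.823% higher and 1.75% lower. Chaperones of the endoplasmic reticulum head the higher side with 7 of 22, and the actin cytoskeleton heads the lower side with 13 of 42.

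Several chemokines and inflammatory mediators were lower in sandwich. Of 40 measured members 11 were called lower and 1 higher, with a median of -0.17. Cxcl10, a chemokine for T cells, read 7.54, 7.54 and 7.55 in sandwich and 8.59, 8.51 and 8.64 in monolayer, 2.05-fold lower (adjusted p = 0.000167). The neutrophil chemokine Cxcl2 read 8.04, 7.79 and 7.83 in sandwich and 8.78, 8.47 and 8.70 in monolayer, 1.70-fold lower (adjusted p = 0.000322). Tnfaip3, or A20, an NF-kappaB inhibitor that NF-kappaB itself induces, read 9.19, 9.11 and 9.08 in sandwich and 9.85, 9.95 and 9.99 in monolayer, 1.75-fold lower (adjusted p = 0.000107). All sandwich arrays lay below all monolayer arrays for these genes. Cxcl11 was 2.22-fold lower, and Cxcl3 was 2.43-fold lower, with 2 of its 4 other probe sets called lower (-1.92 and -0.81) and 2 near 0 (-0.06 and 0.04). Steap4, a metalloreductase induced in inflammation, read 5.19, 4.69 and 4.53 in sandwich and 6.84, 6.67 and 6.55 in monolayer (difference -1.89, adjusted p = 0.000414). Il1rl1, the interleukin 33 receptor, fell by 1.29 (adjusted p = 2.55e-06), and its other probe set read -0.09 (adjusted p = 0.862). Ccl2, Cxcl1, Cxcl16 and Nfkbia fell by 0.48 to 0.76, but each of these calls was lost without 4 or 5 of the 6 arrays (highest adjusted p 0.0903, 0.105, 0.233 and 0.245). Cxcl12, a chemokine made without inflammation, was the member called higher (difference 0.45, adjusted p = 0.034), and its call was lost without 4 of the arrays (adjusted p up to 0.226, without monolayer replicate 1). Its 2 other probe sets were not called.

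NF-kappaB sites were frequent in the promoters of this list. The site was found in 4.16% of all promoters and in 15 of the 32 list members with a promoter, including 7 of the 10 called ones: Cxcl2, Cxcl10, Cxcl11, Cxcl1, Tnfaip3, Nfkbia and Steap4. Over all called genes it was in 18 of 205 lower in sandwich (8.78%) and in 4 of 104 higher (3.85%). Many of its members are known targets of this pathway, so the frequency describes the list. The 3 windows below belong to the called members with the smallest adjusted p, with each site in capitals, at chr1:15544005-15544169 on the minus strand for Tnfaip3 (bases -190 to -26), chr14:15988859-15988908 on the plus strand for Cxcl10 (bases -207 to -158) and chr14:17467299-17467349 on the minus strand for Cxcl2 (bases -94 to -44).
Tnfaip3: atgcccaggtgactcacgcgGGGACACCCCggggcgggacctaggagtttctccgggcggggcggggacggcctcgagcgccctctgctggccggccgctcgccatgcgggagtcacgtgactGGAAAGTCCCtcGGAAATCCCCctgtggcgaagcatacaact
Cxcl10: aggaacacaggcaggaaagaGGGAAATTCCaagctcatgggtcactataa
Cxcl2: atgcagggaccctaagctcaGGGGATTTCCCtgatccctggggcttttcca

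Called interferon-induced genes went both ways. Of 31 measured members 4 were called higher and 4 lower, with a median of 0.07. Rsad2, or viperin, an antiviral enzyme, read 7.65, 7.96 and 8.13 in sandwich and 6.85, 6.40 and 6.63 in monolayer, 2.44-fold higher (adjusted p = 0.00103). Isg15, a ubiquitin-like modifier, read 8.53, 8.68 and 8.93 in sandwich and 7.95, 7.99 and 7.99 in monolayer, 1.66-fold higher (adjusted p = 0.0041). Ifit3, which helps cells to sense viral RNA, read 5.82, 5.88 and 5.78 in sandwich and 4.86, 5.24 and 5.05 in monolayer (difference 0.78, adjusted p = 0.000107). In each of these the sandwich arrays were all higher. Irf1, a transcription factor induced by interferon gamma, read 7.85, 7.61 and 7.71 in sandwich and 8.66, 8.36 and 8.43 in monolayer, 1.70-fold lower (adjusted p = 0.000165). Gbp2, a guanylate-binding protein, fell by 0.75 (adjusted p = 0.00143), and Psmb9, an immunoproteasome subunit, read 9.17, 9.14 and 9.30 in sandwich and 9.63, 9.63 and 9.63 in monolayer (difference -0.43, adjusted p = 0.00899). For these the sandwich arrays were all lower. Usp18, which removes Isg15 from proteins, was the other called rise (0.55) and Parp14 the other called fall (-0.36), with calls lost without 5 and 4 of the arrays (adjusted p up to 0.162 and 0.133). Psmb9 was not called without 2 of the arrays (adjusted p up to 0.0622), and without sandwich replicate 1 the list gave 2 falls. Oasl, Ifi44 and Mx2 differed by 0.37, 0.39 and 0.45 and Tap1 by -0.22, none of them called.

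**Figure D3:**
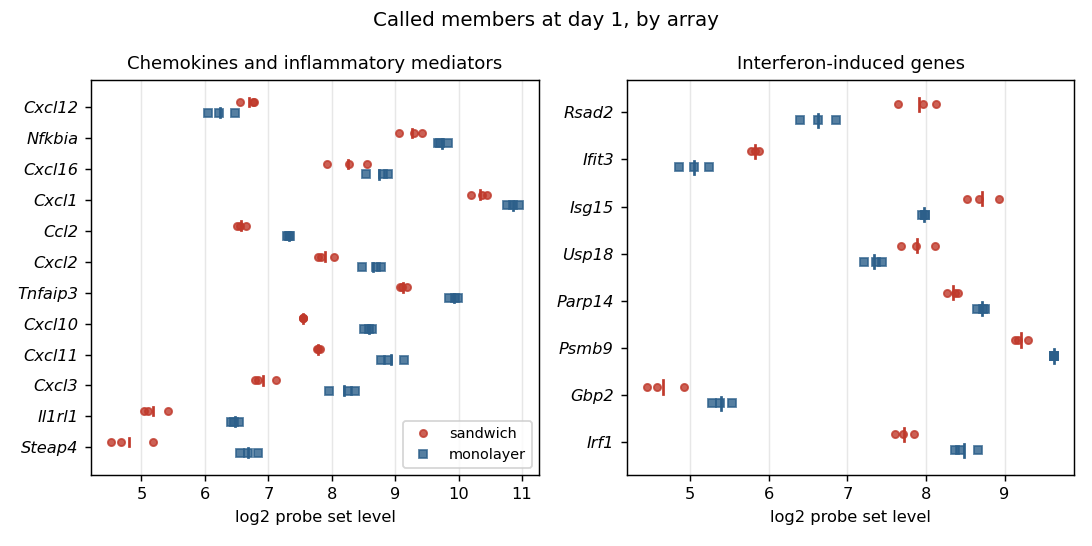
Log2 probe set level (x axis) of the called members of the chemokine and inflammatory list (left panel) and of the interferon-induced list (right panel) at day 1, with 1 point per array (sandwich circles above, monolayer squares below) and a bar at each mean. In the left panel 11 of 12 members are lower in sandwich and Cxcl12 is higher, and in the right panel Rsad2, Ifit3, Isg15 and Usp18 are higher while Parp14, Psmb9, Gbp2 and Irf1 are lower.

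Macrophage markers stood beside these inflammatory genes. Of 16 measured macrophage markers 2 were called, both higher in sandwich: Cd14, a lipopolysaccharide co-receptor that hepatocytes can also make, read 10.53, 10.61 and 10.58 in sandwich and 10.04, 10.02 and 10.02 in monolayer (adjusted p = 0.000197), and Lyz2, lysozyme, read 7.96, 8.02 and 8.15 in sandwich and 7.01, 7.60 and 7.39 in monolayer (adjusted p = 0.0111; lost without 2 of the arrays, up to 0.105 without monolayer replicate 1). The summed level of the list, on the log2 scale, was 11.5 to 11.6 in sandwich and 11.1 to 11.2 in monolayer. That sum adds unlogged levels, so its brightest member, Cd14, weighs most. The median difference of the 16 markers was 0.09, with 11 of 16 above 0 and with Adgre1 at -0.28 and Mrc1 at -0.35. The defining markers Adgre1 and Cd163 lay below the probe set median in both cultures (3.28 and 4.57 in sandwich, 3.56 and 4.76 in monolayer), Cd68 averaged 7.83 in sandwich and 7.73 in monolayer, and none of them was called. In bulk RNA fewer cells of a type and less RNA per cell cannot be told apart, and the part of macrophages in these results was not tested. Markers of stellate cells and fibroblasts (16), endothelial cells (15), cholangiocytes (8), lymphocytes (15), and neutrophils and erythroid cells (9) gave no call by limma at adjusted p under 0.05, and at an unadjusted p under 0.05 only 1 endothelial marker passed. Their summed levels were 10.7 in sandwich and 10.6 in monolayer for stellate cells, 9.4 to 9.5 in sandwich and 9.2 to 9.4 in monolayer for endothelial cells, and 9.4 to 9.5 in sandwich and 9.5 to 9.6 in monolayer for cholangiocytes. They were 8.8 in sandwich and 8.7 in monolayer for lymphocytes, and 8.4 to 8.6 in sandwich and 8.4 to 8.5 in monolayer for neutrophils and erythroid cells. Here too bright members weigh most, such as Dpt for stellate cells (10.00 in sandwich, 9.92 in monolayer) and Epcam for cholangiocytes (8.80 and 8.99). Below the probe set median in both cultures were 11 of 16 stellate, 12 of 15 endothelial, 5 of 8 cholangiocyte and 14 of 15 lymphocyte markers. So were 7 of 9 neutrophil and erythroid markers, and the sums do not measure cell content.

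Lists of liver function gave few calls, most of them higher in sandwich. Of 14 hepatocyte markers 3 were called higher (1 without sandwich replicate 3), and their summed level on the log2 scale was 16.9 to 17.0 in sandwich and 16.7 to 16.8 in monolayer; its part in the results below was not tested. Plasma protein genes gave 3 calls among 30 members, all higher, with a median of 0.10: Hrg, a histidine-rich plasma glycoprotein, at 9.70, 9.59 and 9.74 in sandwich and 8.88, 8.93 and 8.86 in monolayer (1.72-fold, adjusted p = 0.00147), the apolipoprotein Apoa1 (1.49-fold, adjusted p = 0.000425) and plasminogen, Plg (1.54-fold, adjusted p = 0.0133). Ttr, transthyretin, averaged 12.73 in sandwich and 12.52 in monolayer and was not called (adjusted p = 0.209). Acute phase genes gave 4 calls among 22 members, all higher, with a median of 0.14. C4bpb, a chain of the complement regulator C4b-binding protein, read 9.48, 9.63 and 9.65 in sandwich and 8.61, 8.57 and 8.65 in monolayer, 1.97-fold higher (adjusted p = 4.61e-06). The fibrinogen chains Fgg and Fgb and the protease inhibitor A2m were 1.32-fold, 1.45-fold and 1.66-fold higher, and each of these calls was lost without 4 of the 6 arrays (adjusted p up to 0.0767, 0.172 and 0.0931), so that without monolayer replicate 1 the list gave 1 call. Other probe sets of Fgb read 0.10 and 0.12 and were not called. The call of Plg was also lost without 4 arrays (adjusted p up to 0.0798, without monolayer replicate 3).

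Liver transcription factors gave 2 calls among 24 members, both higher. Creb3l3, a factor of the liver's secretory and fasting response that is itself processed from the endoplasmic reticulum, read 10.02, 9.75 and 10.13 in sandwich and 9.51, 9.53 and 9.40 in monolayer (1.40-fold, adjusted p = 0.00289). Hnf4a, the main factor of hepatocyte identity, read 10.83, 10.66 and 11.06 in sandwich and 10.41, 10.49 and 10.25 in monolayer (1.38-fold, adjusted p = 0.0111). The Hnf4a call was lost without 2 of the arrays (adjusted p up to 0.0915, without monolayer replicate 3), and its 2 other probe sets were not called (0.26 and 0.30). Cebpa differed by 0.45 (adjusted p = 0.515). Among 28 transporters 2 were called higher and 2 lower. Slc10a1, the sodium-dependent bile acid importer, read 8.19, 8.08 and 8.07 in sandwich and 7.27, 7.32 and 7.28 in monolayer, 1.77-fold higher (adjusted p = 0.00863). Abcc2, which exports conjugates into bile, read 11.12, 11.02 and 11.27 in sandwich and 11.84, 11.72 and 11.66 in monolayer, 1.52-fold lower (adjusted p = 0.00147). Thus an uptake carrier was higher and a canalicular exporter lower, without overlap in either case. The other calls were Aqp9 (0.44) and the glucose transporter Slc2a2 (-0.38), each lost without 5 of the arrays (adjusted p up to 0.174 and 0.202). Of 35 cytochrome P450 and conjugation genes Ugt2b1, a glucuronosyltransferase, was the sole call, at 6.66, 6.69 and 6.79 in sandwich and 7.40, 7.27 and 7.21 in monolayer (1.49-fold lower, adjusted p = 0.00923), lost without 2 of the arrays (up to 0.063). Cyp2e1 averaged 9.95 in sandwich and 9.52 in monolayer (adjusted p = 0.354), and Cyp7a1, the rate-limiting enzyme of bile acid synthesis, 4.53 in sandwich and 4.44 in monolayer (adjusted p = 0.838). The fetal gene Afp, the duct keratin Krt19 and the collagen Col1a1 differed by -0.04, 0.03 and 0.10 and were not called.

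Most called genes of fat use were higher in sandwich. Of 28 fat oxidation members 6 were called higher and 1 lower, with a median of 0.12. Pdk4, which blocks entry of pyruvate into the citric acid cycle, read 7.76, 7.54 and 7.64 in sandwich and 6.16, 6.07 and 6.02 in monolayer, 2.95-fold higher (adjusted p = 1.04e-05), with another probe set at 0.54 (adjusted p = 0.0533). Acaa2, a thiolase of mitochondrial beta-oxidation, was 1.60-fold higher and the lipid droplet protein Plin2 1.40-fold higher (adjusted p = 0.000197 and 0.00166), and a further probe set of each was not called. Ehhadh, an enzyme of peroxisomal beta-oxidation, rose by 0.79 on the log2 scale and G0s2, an inhibitor of fat breakdown, was 1.57-fold higher. Lpin1 rose by 0.52, a call lost without 2 of the arrays (adjusted p up to 0.0875). The member called lower was the fatty acid receptor Cd36, at 9.80, 9.94 and 10.01 in sandwich and 10.81, 10.85 and 10.81 in monolayer, 1.87-fold lower (adjusted p = 1.03e-05). Members of this list thus include an uptake receptor that fell and a lipase inhibitor that rose, besides enzymes of oxidation.

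Cholesterol synthesis genes gave 3 calls among 20 members, all higher, with a median of 0.32, and 19 of the 20 differences were above 0. Idi1, an isomerase of the mevalonate pathway, read 10.10, 10.00 and 10.08 in sandwich and 9.22, 9.12 and 9.10 in monolayer, 1.89-fold higher (adjusted p = 0.000197), and its other probe set was not called (0.74, adjusted p = 0.364). The sterol oxidase Msmo1 was 1.52-fold higher (adjusted p = 0.00193). Acat2 was 1.68-fold higher, a call lost without 4 of the arrays (adjusted p up to 0.0996, without sandwich replicate 1). The sterol regulatory element TCACNCCAC, in 1.13% of promoters, was in 0 of the 16 list members with a promoter sequence. Over all called genes with a promoter it was in 3 of 104 higher in sandwich (2.9%) and in 4 of 205 lower (1.95%). Of 20 fatty acid synthesis genes only the desaturase Scd2 was called, at 4.59, 4.38 and 5.04 in sandwich and 5.91, 5.71 and 5.73 in monolayer (difference -1.11, adjusted p = 0.012), a call lost without 3 of the arrays (up to 0.1). Its 3 other probe sets read -0.08, -0.03 and 0.01. The genes of amino acid breakdown gave 5 calls among 33 members, all higher, with a median of 0.02. Csad, an enzyme of taurine synthesis, read 8.58, 8.12 and 8.74 in sandwich and 7.16, 7.39 and 7.02 in monolayer, 2.45-fold higher (adjusted p = 4.21e-05). Arg1, the arginase of the urea cycle, was 1.56-fold higher (adjusted p = 0.00138). Mat1a, Tdo2 and Cdo1 rose by 0.51, 0.50 and 0.38, with calls lost without 3, 5 and 6 of the arrays (adjusted p up to 0.118, 0.167 and 0.181), and without monolayer replicate 3 the list gave 2 calls. Igfbp1, a secreted binding protein for insulin-like growth factors, and Pck1, the committed enzyme of gluconeogenesis, were the 2 calls among 13 genes of glucose output, 1.46-fold and 1.66-fold higher, the Pck1 call being lost without 4 of the arrays (adjusted p up to 0.109). Of the oxidative stress list of 24 genes Slc7a11 and Srxn1 were called higher and Gpx2 lower, the calls of Srxn1 and Gpx2 being lost without 5 and 2 of the arrays (adjusted p up to 0.229 and 0.0648). Neither of the 2 other probe sets of Srxn1 was called. None of 37 oxidative phosphorylation, 30 proteasome and 16 glycolysis genes was called by limma, with medians of -0.10, -0.09 and 0.03 and with 2, 1 and 1 at an unadjusted p under 0.05. Of their differences 3 of 37, 1 of 30 and 13 of 16 were above 0, so the oxidative phosphorylation and proteasome lists leaned lower by small amounts. The median over genes was -0.0448 with dim probe sets left out. Interquartile ranges of the arrays were 3.15, 2.98 and 3.14 in sandwich and 3.27, 3.21 and 3.11 in monolayer. Of the mostly dim markers 13 of 16 stellate, 11 of 15 endothelial and 12 of 15 lymphocyte differences were above 0. So were 5 of 8 cholangiocyte and 5 of 9 neutrophil and erythroid ones. The part of scaling in these leans was not tested.

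The remaining genes among the largest changes belonged to none of these lists. Serpinb9, an inhibitor of granzyme B, read 7.27, 7.31 and 7.50 in sandwich and 8.36, 8.58 and 8.78 in monolayer, 2.32-fold lower (adjusted p = 4.61e-06). Id3, an inhibitor of helix-loop-helix factors, read 7.73, 8.14 and 7.94 in sandwich and 9.08, 9.03 and 9.18 in monolayer, 2.23-fold lower (adjusted p = 5.1e-07). Tsx was 2.48-fold lower (adjusted p = 1.08e-05). The adhesion protein Flrt3 fell by 1.21 on the log2 scale (adjusted p = 0.000435), with a sandwich mean of 5.53. Pln, phospholamban, Tent5a and Smox, spermine oxidase, rose by 0.73, 0.72 and 0.72, with the 2 other probe sets of Pln at -0.11 and 0.19 and those of Tent5a at 0.22 (not called) and 0.49 (called).

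Most falls seen at day 1 were also called at day 2, and about as many rises were not called at day 2 as were. Of the 117 genes higher at day 1, 55 were higher and 2 lower at day 2 (2.83% of all genes were called higher and 5.85% lower that day), 64 and 8 at day 3 (10.9% and 11.8%), and 69 and 20 at day 8 (15.6% and 20.7%). Of the 249 lower at day 1, 181 were lower and 1 higher at day 2, 186 and 11 at day 3, and 163 and 33 at day 8. These genes were selected by their day 1 call, which by itself favours smaller values on other days. The change of the gap, tested as sandwich minus monolayer at day 2 less the same at day 1, was called in 0.816% of all genes, in 1 up and 11 down among the 117, and in 5 up and 18 down among the 249. From day 1 to day 8 it was called in 21.8% of all genes, in 37 up and 38 down among the 117, and in 65 up and 73 down among the 249. All gap changes share the day 1 arrays.

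The gaps of Hspa1a, Hspb1 and Zfand2a shrank by day 2. Hspa1a averaged 11.72 ± 0.12, 9.26 ± 0.24, 8.28 ± 0.23 and 7.52 ± 0.28 in sandwich at days 1, 2, 3 and 8, and 8.18 ± 0.13, 8.18 ± 0.08, 7.77 ± 0.12 and 8.39 ± 0.05 in monolayer (SD, n = 3 each). Its gap of 3.54 shrank by 2.45 to day 2 (adjusted p = 7.53e-08) and was -0.88 at day 8. Hspb1 averaged 9.87, 8.85, 8.22 and 8.61 in sandwich and 8.44, 8.86, 9.03 and 9.78 in monolayer, so the order of the cultures had turned by day 3, and the gap changed by -1.44 to day 2 (adjusted p = 6.47e-05). Zfand2a had a gap of 1.10 at day 1 and 0.07 at day 2 (change -1.03, adjusted p = 0.00499). The Hsph1 gap also went down, from 0.49 at day 1 to 0.01 at day 2, though that change was not called (-0.48, adjusted p = 0.0671). At day 8 it was -0.62 (change -1.12, adjusted p = 1.155e-07). The gap of Dnajb4, the list member called lower, widened instead, being -0.45 at day 1 and -1.06 at day 2 (adjusted p = 0.012). The BiP gene Hspa5 had a gap of 0.56 at day 1 and 0.59 at day 2 (change 0.03, SE 0.14, not called). Of the 7 called chaperones of the endoplasmic reticulum, 0 had a called gap change to day 2. To day 8 the gap declined by the test in 4 and increased in 0. Those 4 were Sdf2l1, Hsp90b1, Creld2 and Pdia4, with gaps of -0.06, -0.10, 0.07 and 0.19 at day 8. The day 8 gaps of Hspa5, Dnajb9 and Manf were 0.88, 0.70 and 0.41, with no change called.

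**Figure D4:**
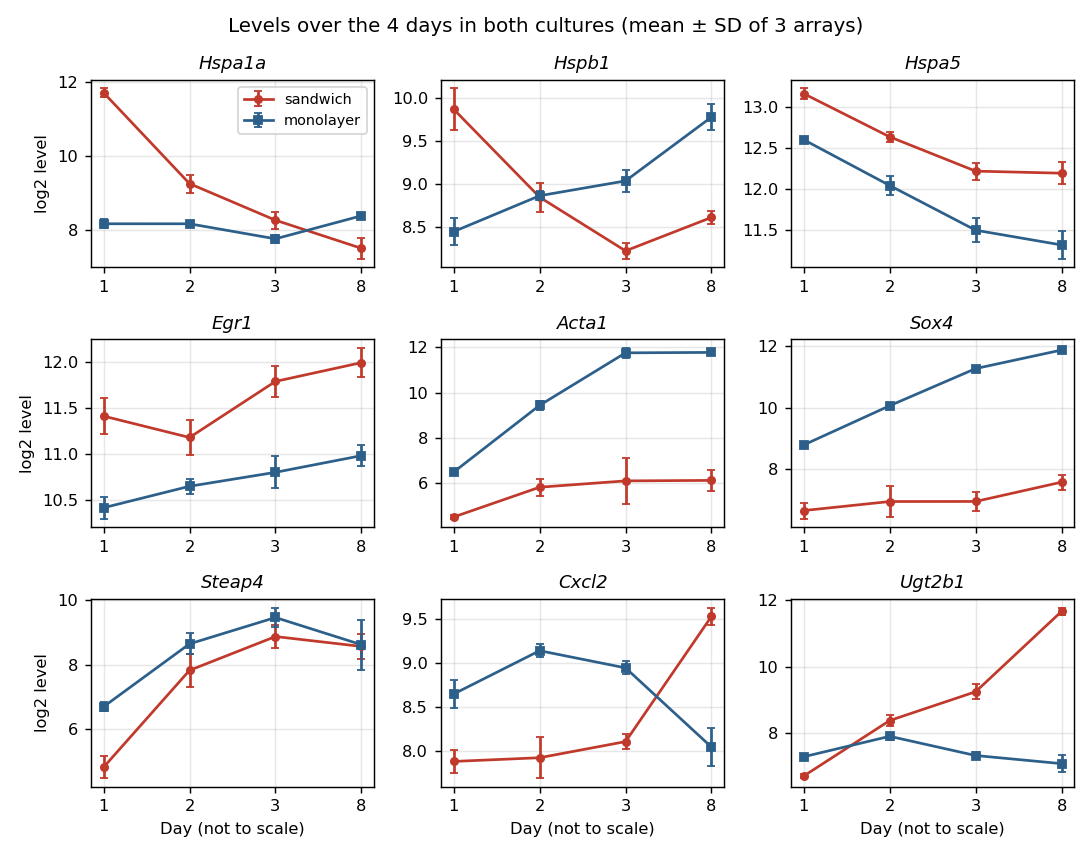
Log2 level (y axis, own scale in each panel) of 9 genes at days 1, 2, 3 and 8 (x axis, not to scale) in sandwich (red circles) and monolayer (blue squares), as mean ± SD of 3 arrays. Hspa1a in sandwich is 11.72 at day 1 and 9.26 at day 2, while Sox4 and Acta1 stay low in sandwich and increase day by day in monolayer up to 11.87 and 11.77 at day 8.

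Some actin-related gaps widened. Of the 13 actin list members called at day 1, the gap change to day 2 was called in 5, all toward a larger deficit in sandwich, and that to day 8 in 11, all the same way. Acta1 averaged 4.50, 5.82, 6.10 and 6.12 in sandwich over the 4 days and 6.49, 9.44, 11.76 and 11.77 in monolayer, and its gap changed by -1.63 to day 2 (adjusted p = 0.0917) and by -3.67 to day 8 (adjusted p = 4.24e-07). The Tagln gap changed by -1.74 to day 2 (adjusted p = 0.0159) and that of Cav1 by -1.31 (adjusted p = 0.042). Sox4 averaged 6.67, 6.96, 6.96 and 7.59 in sandwich and 8.79, 10.06, 11.27 and 11.87 in monolayer. Of the 12 chemokine and inflammatory list members called at day 1, the gap change to day 2 was called in 1, downward. That to day 8 was called in 8 up and 1 down. The Cxcl3 gap changed by -1.17 to day 2 (adjusted p = 0.00209), a larger deficit in sandwich. Its change to day 8 was not called (-0.34, adjusted p = 0.2965). The gap of Serpinb9, a gene on none of the lists, changed by -1.03 to day 2 (adjusted p = 0.00687), also a larger deficit. The Steap4 gap of -1.89 was -0.05 at day 8 (change 1.83, adjusted p = 0.00251), and Cxcl2 averaged 7.89, 7.93, 8.11 and 9.53 in sandwich and 8.65, 9.14, 8.94 and 8.05 in monolayer, lower in sandwich at day 1 and higher at day 8 (change 2.24, adjusted p = 3.34e-10).

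Some metabolic genes that were lower in sandwich at day 1 were no longer lower at day 2. Ugt2b1 averaged 6.71, 8.38, 9.25 and 11.66 in sandwich and 7.29, 7.91, 7.33 and 7.09 in monolayer, so its gap was -0.58 at day 1, 0.47 at day 2 and 4.58 at day 8. Cd36 averaged 9.92, 11.70, 11.92 and 11.75 in sandwich and 10.82, 11.68, 12.03 and 11.54 in monolayer, so its gap was -0.91 at day 1 and 0.03 at day 2 (change 0.93, adjusted p = 0.00174). More members of the lists of liver metabolism were called on later days, as were more genes in all: cholesterol synthesis had 3 of 20 members higher at day 1 and 19 of 20 at day 2, amino acid breakdown 5 of 33 at day 1 and 21 of 33 at day 2, and plasma proteins 3 of 30 at day 1, 11 of 30 at day 2 and 25 of 30 at day 3. The differences between these counts were not tested.

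**Figure D5:**
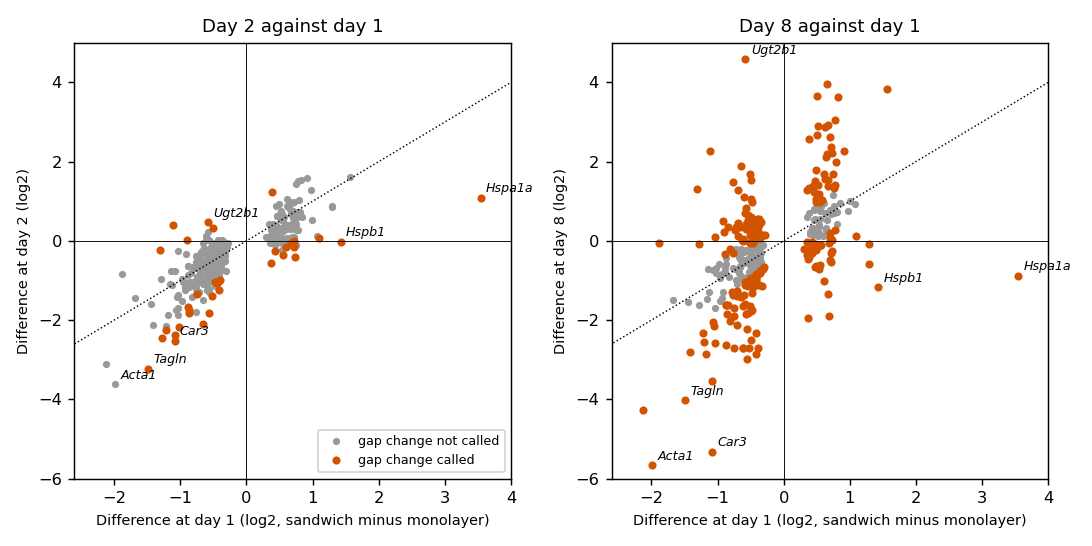
Difference between the cultures (log2, sandwich minus monolayer) at day 2 (left, y axis) or day 8 (right, y axis) against the difference at day 1 (x axis) for the 366 genes called at day 1, with 1 point per gene, the dotted line marking an unchanged gap and orange points the genes whose gap change was called. Hspa1a lies far below the line on both panels, with a gap of 3.54 at day 1, 1.08 at day 2 and -0.88 at day 8.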

How the data were processed

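The deposited table holds log2 probe set levels of 24 Affymetrix rat arrays, made by the authors from biotin-labelled cRNA that, per the labels' protocols, was primed with oligo(dT). The submitters' processing notes name RMA and limma, with no role or version. Values were used as deposited, and 0 per-sample columns were left unused. Of 31099 probe sets 57 controls were left out and 31042 tested, 20826 with 1 gene symbol, 436 with several and 9780 with none. Of the 20826, 20758 were matched to RefSeq by gene ID. A gene was read by its probe set with the highest mean over all arrays, so 14217 genes were read, 4525 of them with several probe sets. Other probe sets of a called gene that were not called are mentioned with it.

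The tests used limma (version 3.58.1, R 4.3.3), with 1 mean for each of 8 groups over 24 arrays (16 residual degrees of freedom), and adjusted by the Benjamini-Hochberg method over all tested probe sets, two-sided, called under 0.05. Samples were grouped by the labelled culture and day. The number of arrays limits the precision, and the median SE of a day 1 difference was 0.11. There were no detection calls, so a fold is given only where the lower mean reached the median of all probe sets, 5.62. RNA integrity was compared by exact permutation. The code was tested on simulated data.

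Named genes were the 15 largest rises and 15 largest falls among called genes without overlap between cultures, up to 5 members of each list by adjusted p, 14 fixed genes, 6 genes per direction for each gap change, and up to 3 called members per motif whose promoter held it, besides Hspa1a. Other genes were named after their values were seen. The 30 lists of functions and 7 of markers, the members and the tests were chosen with earlier results of these data known, and some genes sit on several lists. By the correlation of deviations, replicate numbers did not pair the samples on every day. Alternatives were array weights, centring, quantile normalization, a covariate for spread, a filter on dim probe sets, only the 6 day 1 arrays, a trended robust prior, a replicate block, other probe sets and each array left out in turn.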

Additional observations from a re-analysis of the deposited data

Results flagged for a closer look

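The gap between the cultures (sandwich minus monolayer, log2) changed between day 1 and a later day, by the test of that change itself in limma with Benjamini-Hochberg adjustment, in 168 probe sets to day 2 and in 4852 to day 8. Among genes called at day 1, the largest changes to day 2 were declines in Hspa1a (-2.45), Tagln (-1.74), Hspb1 (-1.44), Fam25a (-1.44), Car3 (-1.43) and Cav1 (-1.31). The largest increases to day 2 were in Scd2 (1.51), Tsx (1.08), Ugt2b1 (1.05), Cd36 (0.93), Cdo1 (0.86) and Acmsd (0.83). To day 8 the gap declined most in Hspa1a (-4.42), the carbonic anhydrase gene Car3 (-4.23), Acta1 (-3.67), Hspb1 (-2.59), the SMAD corepressor gene Skil (-2.58) and Tagln (-2.54). It increased most in Ugt2b1 (5.16), Scd2 (3.37), G0s2 (3.29), Mat1a (3.14), Slc10a1 (2.81) and Tsx (2.62). The decline to day 2 is a rise that shrank for Hspa1a (gap of 1.08 at day 2) and was gone for Hspb1 (-0.02). By day 8 it is a rise that became a fall for Hspa1a, Hspb1 and Skil (gaps of -0.88, -1.17 and -1.89). For Car3, Cav1, Acta1 and Tagln a decline is a deepening fall. For Scd2, Tsx, Ugt2b1, Cd36 and Acmsd an increase started from a fall at day 1, with gaps of 0.39, -0.23, 0.47, 0.03 and 0.34 at day 2. For Cdo1, G0s2, Mat1a and Slc10a1 an increase is a rise that grew. The day 1 calls of Fam25a, Cdo1 and Acmsd were lost without 6, 6 and 4 of the 6 day 1 arrays left out in turn, and 3 other probe sets of Scd2 and 1 of Car3 showed no call at day 1.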

How the results depend on the processing

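The day 1 count of 552 called probe sets (178 higher, 374 lower) became 933 with array weights (310 higher, 623 lower) and 699 with the interquartile range covariate (351 higher, 348 lower). It was 322 to 465 without 1 of the 6 arrays (97 to 134 higher, 197 to 335 lower). At an unadjusted p under 0.05 there were 3424. The 168 calls for the day 2 gap minus day 1 gap became 491 with array weights, 306 with the covariate and 261 with a replicate block, and 115 to 158 without 1 array; the 4852 to day 8 ran from 4224 to 4621. The 116 called list members ran from 87 to 93. The RNA integrity differences ran from 0.0267 to 0.1695 for beta-actin and from -0.0142 to 0.1191 for GAPDH. Same-numbered day 1 arrays had deviations correlated at 0.41, -0.11 and -0.02, those of day 2 at 0.39, -0.43 and -0.08, and those of day 8 at 0.42, 0.12 and 0.25. At day 8, but not at days 1 and 2, each array correlated best with its own number, a hint from the data and not from the design. The numbers were not taken to pair the samples; the replicate block gave 793 calls at day 1 (257 higher, 536 lower) and 5694 for the day 8 gap minus day 1 gap. Signs turned only for other probe sets, at 0.0408 for Cxcl3, 0.0122 for Scd2 and -0.1134 for Pln. Of 129 called named genes, 129 kept their call with array weights and with the block, 122 with quantile normalization, 120 after centring, 105 with only the 6 day 1 arrays, and 46 lost it without at least 1 array. The causes were not tested. With 3 arrays per group, differences near the median SE of 0.11 were not detectable.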
